A study of Bactrocera dorsalis with 16 samples.

Results

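Kinesins and dyneins are the motor proteins that carry cargo along microtubules, and tubulins are the proteins of which microtubules are built. Their transcript levels were followed in egg-producing and storage organs, the ovary and the fat body, of the oriental fruit fly Bactrocera dorsalis. Members were all genes whose deposited product description contains the word kinesin, dynein or tubulin, in any case, and neither mitotic nor aurora. The rule used names and no measured values. It found 100 of the 13759 genes in the table, and the exclusion of mitotic and aurora products removed 0.

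Alpha and beta tubulin pair up and polymerise into microtubules, folding cofactors assemble the pairs, and gamma tubulin with its complex starts new microtubules. Most kinesins walk towards the growing ends of microtubules, and cytoplasmic dynein walks the other way together with dynactin. In the Drosophila ovary, dynein moves RNA and organelles from nurse cells into the oocyte, kinesin heavy chain moves oskar RNA to the posterior pole of the oocyte, and several kinesins shape the meiotic spindle. Axonemal dyneins instead bend cilia and flagella, which in Drosophila are found in sperm and in some sensory neurons.

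The study sampled both organs of adult females at 1, 5, 9 and 13 days after eclosion, with 2 biological replicates per tissue and age, giving 16 libraries in 8 groups. No group carried a mutation or a treatment, and all flies were kept under a 12 h light and 12 h dark cycle on an artificial diet of yeast extract and sugar. The labels do not say how many animals went into a library or whether the females had mated. Values are FPKM (fragments scaled to transcript length and to the mapped fragments of the library), so levels of different genes are compared per length. Read totals are unknown, and a gene listed at 0 therefore has no stated detection limit.

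In the whole table, 7425 to 9054 genes reached 1 FPKM in a library, and of the members 37 to 59 did. Germline markers summed to between 525 and 1106 FPKM in the ovary libraries and between 26.5 and 53.1 in the fat body libraries, with vasa at 337 FPKM or more in every ovary library. Fat body markers summed to 576 to 1369 FPKM in the ovary and 1671 to 26537 in the fat body. Muscle markers were present in both tissues. They summed to 3116 to 6372 FPKM in the ovary at days 1 and 5, to 468 to 1207 at days 9 and 13, and to 6214 to 17699 in the fat body. Follicle cell markers in the ovary went from at most 12.7 FPKM at days 1 and 5 to at least 2346 at days 9 and 13.

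The 100 members fell into 7 classes by product name. There were 8 alpha and beta tubulins, 5 genes of gamma tubulin and its complex, 12 tubulin folding cofactors and modifying enzymes, 23 kinesins, 3 cargo adaptors and other products, 11 cytoplasmic dynein genes and 38 axonemal dynein genes with their assembly factors. In all, 62 members averaged 1 FPKM or more in some group and were tested, and the other 38 did not. Of the 38 untested members, 29 were axonemal dyneins. The table gives 75 distinct product names to the 100 members, and 41 members share a name with another, so members are told apart by the table's identifier. Reads of near-identical copies, tubulins among them, could have been divided between loci in the counting. At 9 loci the description also holds an unrelated product, and the level of the member cannot be separated from it.

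Changes are differences of mean log2(FPKM + 1), given ± SE and tested with limma over all 10213 genes whose mean reached 1 FPKM in some group. A member counts as called at a Benjamini-Hochberg adjusted p under 0.05. The added 1 FPKM makes fold changes of low genes smaller than the ratio of their levels. A call is said to hold in every alternative when it passed in each of the other settings, scalings and left-out libraries in which the gene was tested. Samples of fewer cells of one type and samples with less RNA per cell cannot be told apart in bulk tissue. Steps between neighbouring ages share the libraries of the age in between.

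The comparison of the tissues asked which of these genes stood higher in the egg-producing organ over the 4 ages. Of the 62 tested members, 51 were higher in the ovary, 5 were lower and 6 did not pass the test. Over all tested genes, 82.3% were called in either direction, 57.4% higher and 24.9% lower. Of the 51, 8 had passed the filter through ovary day 1 alone and 1 through ovary day 5 alone. With no filter, 64 of all 100 members were higher and 6 lower, against 46.9% and 20.0% of all genes. The median of the tested members was 1.12 on the log2 scale, against 0.58 for all tested genes. After median-of-ratios scaling, which moved the median of all genes to -0.03, 36 members were higher and 11 lower, with a members' median of 0.67. Under it all genes had 3957 higher and 4053 lower calls, and fewer than 62 members were tested. All 5 genes of gamma tubulin and its complex were higher, with a median of 2.99, and they kept this count under that scaling and under quantile normalization. Of the 18 tested kinesins, 15 were higher and 3 lower (13 and 3 after median-of-ratios scaling). The 8 tested cytoplasmic dynein genes were all higher, but 35495 and MSTRG.7719 had passed the filter through 1 ovary group alone. Neither was tested after that scaling, where 4 were higher and 0 lower. With no filter, 8 of 11 cytoplasmic dynein genes were higher and 0 lower. All 11 tested folding and modifying genes were higher as deposited, but glycylase 3B (183197) and TTLL13 (30327) had passed the filter through ovary day 1 alone. Neither was tested after that scaling, where 6 of the class were higher and 2 lower. With no filter, 12 of 12 were higher.

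**Figure D1:**
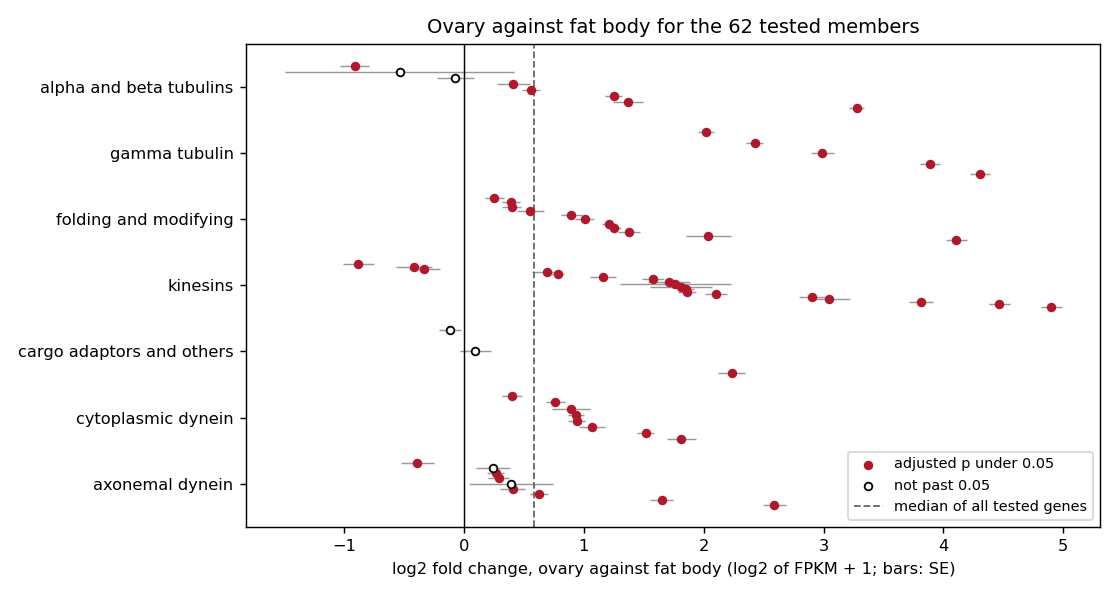
Log2 fold change of ovary against fat body, averaged over the 4 ages, for each of the 62 tested members in 7 classes. Bars are SE, filled points passed the limma test at an adjusted p under 0.05, and the dashed line at 0.58 is the median of all 10213 tested genes. All 5 gamma tubulin genes lie right of the dashed line, between 2.02 and 4.30, and KRP-130 and KIF23 lie farthest to the right, at 4.90 and 4.47.

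Alpha-Tubulin at 84B (MSTRG.10160) and beta-Tubulin at 56D (MSTRG.6495), named after the main general tubulins of Drosophila, held 45.7% to 84.8% of the summed FPKM of all members in a library. Beta-Tubulin at 56D stood at 2684 and 2248 FPKM in the ovary at day 1, 2345 and 2253 at day 5, 1470.2 and 1422 at day 9, and 1466 and 1204 at day 13. In the fat body its values were 1143 and 1013, then 1345 and 1277, then 569.8 and 658, and finally 387 and 398 FPKM. The ovary was above the fat body at every age with no overlap, and both tissues were lower from day 9 on. It was higher in the ovary by 1.25 ± 0.07 on the log2 scale (limma adjusted p = 2.2e-08), and by 0.40 after median-of-ratios scaling and 2.16 after quantile normalization. From day 5 to day 9 it fell by 0.67 ± 0.14 in the ovary (limma adjusted p = 0.00328) and by 1.10 ± 0.14 in the fat body (limma adjusted p = 0.000707). The ovary call ended after median-of-ratios scaling, where the change was -0.40.

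Alpha-Tubulin at 84B gave 2619.7, 3118, 3030, 1765, 1347 and 1105 FPKM in 6 of the 8 ovary libraries. The other 2 stood far below their partners, at 62.3 FPKM in day 1 replicate 1 and 16.4 FPKM in day 9 replicate 2. The fat body libraries ran without such gaps from 1669 and 1380 at day 1 through 1834 and 1780 at day 5 and 781 and 959 at day 9 to 489 and 507 at day 13. The tissue difference was -0.54 ± 0.96 with a limma adjusted p of 0.61, and it turned to 0.13 without the first of these libraries and to 0.30 without the other. Gaps of more than 2 on the log2 scale between the libraries of a group were seen in 1.38% to 2.90% of all tested genes per group, so no age step of this gene is read here.

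The less abundant tubulins went in opposite directions in the ovary. Tubulin alpha-4 chain (MSTRG.11036), the name of the maternal alpha tubulin in Drosophila, had 25.1 and 21.2 FPKM at day 1, 22.9 and 21.1 at day 5, 59.4 and 68.3 at day 9, and 88.5 and 85.1 at day 13. Its fat body values lay between 2.50 and 3.94 FPKM in all 8 libraries. It was 3.28 ± 0.06 higher in the ovary (limma adjusted p = 4.32e-11) and rose there by 1.49 ± 0.13 from day 5 to day 9 (limma adjusted p = 1.29e-05). Both the tissue call and the rise held in every alternative run.

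Tubulin beta chain (MSTRG.2156) showed the reverse. Its ovary values were 81.6 and 55.0 FPKM at day 1, 70.1 and 71.6 at day 5, 22.6 and 23.3 at day 9, and 12.4 and 12.2 at day 13, while the fat body libraries stayed between 48.2 and 98.9 FPKM. It fell by 1.58 ± 0.24 from day 5 to day 9 in the ovary (limma adjusted p = 0.000477) and over the ages was 0.91 ± 0.12 lower there than in the fat body (limma adjusted p = 3.11e-05). Muscle markers fell in the same ovary step: 14 of the 22 tested genes of that list were lower and 1 higher, against 24.1% and 13.9% of all genes, with a median of -2.52. No muscle gene was at 0 in all 16 libraries, and the part of muscle in the fall of this tubulin was not tested.

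Tubulin beta-2 chain (MSTRG.1626) had 22.4 and 13.7 FPKM in the ovary at day 1 and 6.61 to 8.53 in the other 6 ovary libraries, against 2.38 to 3.82 in the fat body. It fell by 1.18 ± 0.24 from day 1 to day 5 in the ovary (limma adjusted p = 0.00687), a call that ended without ovary day 5 replicate 2, where the changes over all single libraries left out ran from -1.51 to -0.85. The tubulin beta-3 locus (MSTRG.1459), whose description also holds a lysosomal transmembrane protein and a fatty acid transport protein, went from 46.7 and 47.6 FPKM at day 5 to 31.7 and 31.8 at day 9 in the ovary. Its tissue difference of 0.56 ± 0.07 turned to -0.26 after median-of-ratios scaling. The product named tubulin alpha-1 chain (171694) was low, with 2.68 and 0.67 FPKM in the ovary at day 1 and at most 0.434 in any other library. The locus named CG32396 (MSTRG.3995) lay between 13.8 and 32.4 FPKM over all 16 libraries, and its tissue difference of -0.07 ± 0.16 did not pass the test as deposited. It was called lower in the ovary after median-of-ratios scaling, at -0.88, and after quantile normalization, at -0.66.

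**Figure D2:**
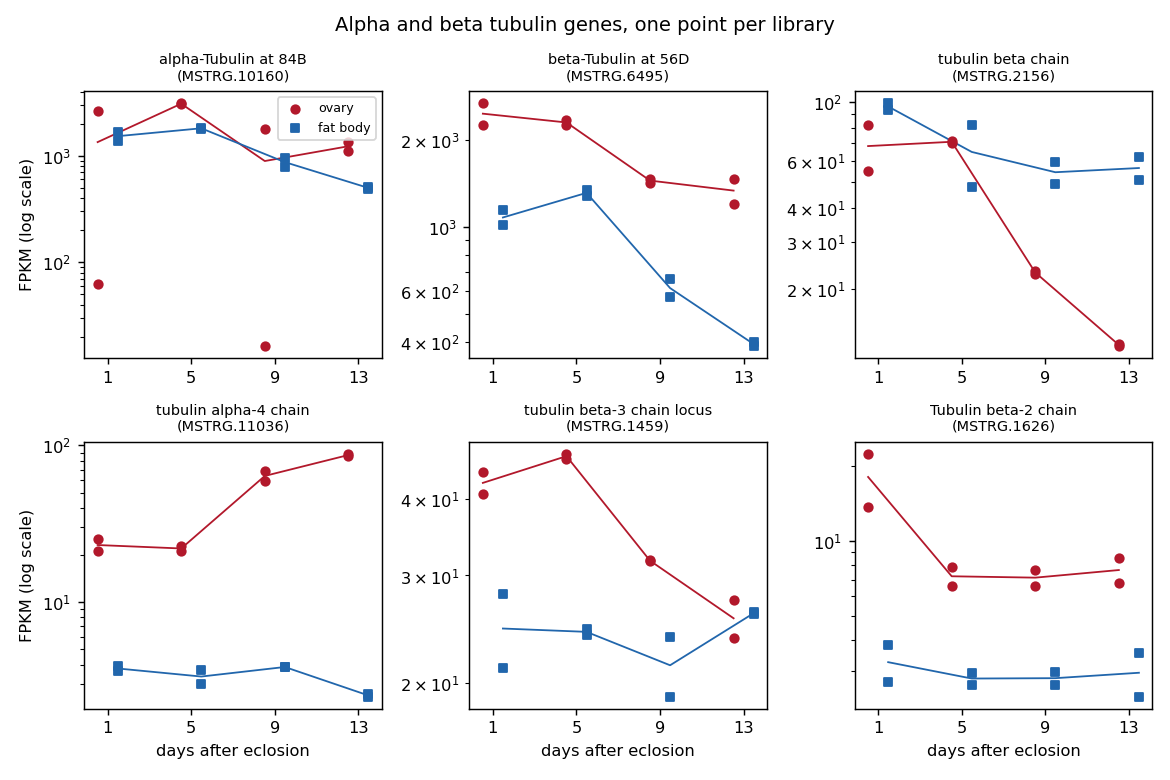
FPKM of 6 alpha and beta tubulin genes against days after eclosion, on a log axis, with 1 point per library and lines through the means of the 2 libraries. Tubulin alpha-4 chain goes up in the ovary from 22.9 and 21.1 FPKM at day 5 to 88.5 and 85.1 at day 13, tubulin beta chain goes down to 12.4 and 12.2, and alpha-Tubulin at 84B has 2 ovary libraries at 62.3 and 16.4 FPKM.

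Gamma tubulin and the proteins that gather it into a nucleating ring were low in the fat body. In the ovary 4 of the 5 genes rose between days 5 and 9, and the calls of 3 of them held in every alternative. Of all genes, 13.9% were called higher in that step and 24.1% lower. In the fat body 2 of the 5 were called higher and 1 lower in the same step, against 5.53% and 5.60% of all genes. Gamma-tubulin complex component 2 (MSTRG.3148) was the most abundant. It had 51.7 and 44.6 FPKM in the ovary at day 1, 48.4 and 50.1 at day 5, 181 and 219.7 at day 9, and 252 and 223 at day 13. The 8 fat body libraries lay between 3.66 and 9.10 FPKM. It was 3.89 ± 0.09 higher in the ovary (limma adjusted p = 5.83e-11) and rose by 2.0 ± 0.17 from day 5 to day 9 (limma adjusted p = 1.41e-05). In the fat body it was also called higher in that step, by 0.79, a call that did not hold in every alternative.

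The locus named tubulin gamma-1 chain-like (MSTRG.2648) went from 19.7, 16.6, 18.6 and 16.3 FPKM at days 1 and 5 to 42.0, 42.3, 52.1 and 49.3 at days 9 and 13. The fat body held between 0.217 and 1.43 FPKM. The tissue difference was 4.30 ± 0.08 and the rise from day 5 to day 9 was 1.23 ± 0.17 (limma adjusted p = 0.000262). A fat body rise in that step was called at 0.64, but not in every alternative. The locus named tubulin gamma-1 chain (MSTRG.4005) behaved differently, with 22.5 to 29.6 FPKM in all 8 ovary libraries and no called step there. It was still 2.43 ± 0.07 above the fat body, where it lay between 2.80 and 4.96 FPKM. From day 5 to day 9 it was called lower in the fat body, by 0.52, but not in every alternative. Drosophila has a general and a maternal gamma tubulin, and the table's names do not say which of these each locus corresponds to.

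Gamma-tubulin complex component 3 (MSTRG.5430), the partner of component 2 in the small gamma tubulin complex, rose from 10.8 and 10.1 FPKM at day 5 to 19.9 and 29.0 at day 9 and 33.8 and 38.4 at day 13. That was a rise of 1.13 ± 0.19 in the first of these steps (limma adjusted p = 0.000972), and the gene was 2.99 ± 0.10 higher than in the fat body. Component 5 (MSTRG.5038) had 19.4 and 20.0, 13.8 and 13.2, 18.1 and 18.5, and 19.6 and 19.7 FPKM in order of age. Its dip at day 5 was called at -0.51 ± 0.14, but the call ended when any of the 4 ovary libraries of days 1 and 5 was left out (-0.54 to -0.48), and after median-of-ratios scaling. Its rise of 0.41 ± 0.14 in the next step did not hold either.

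**Figure D3:**
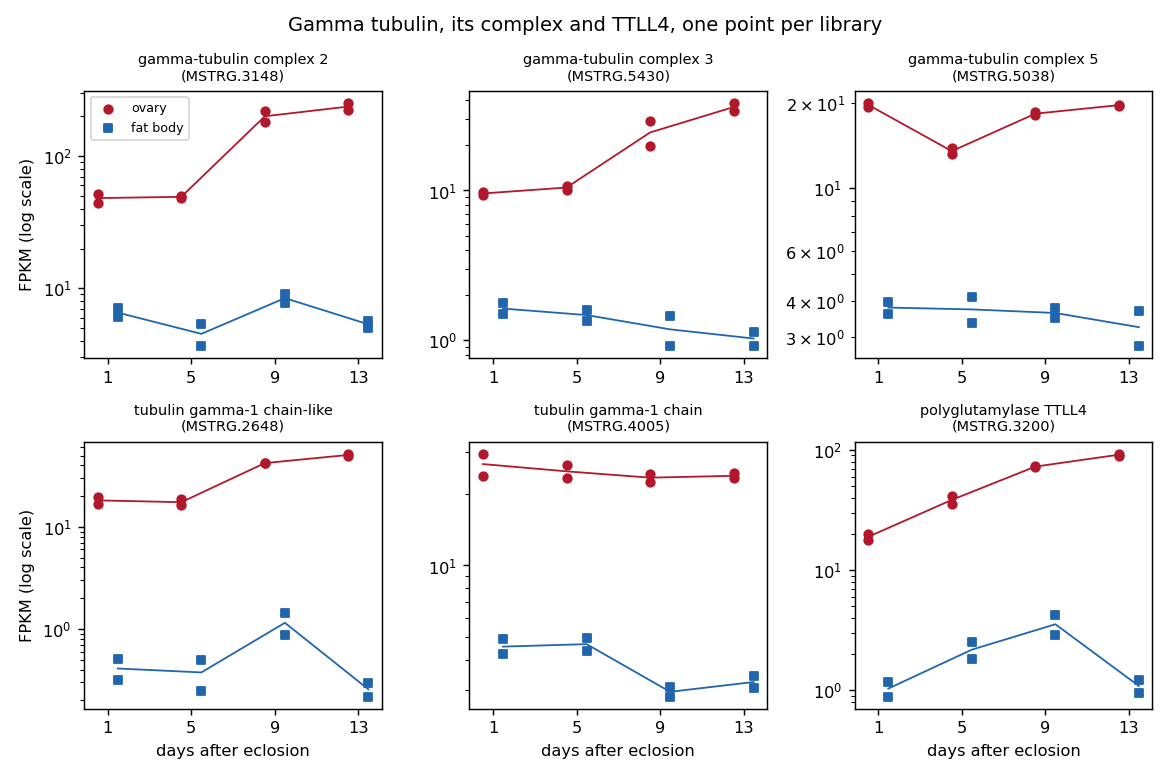
FPKM of the 5 genes of gamma tubulin and its complex and of the polyglutamylase TTLL4 against days after eclosion, on a log axis, with 1 point per library and lines through the group means. Component 2, component 3, the gamma-1-like locus and TTLL4 stand higher at days 9 and 13 than at days 1 and 5 in the ovary, and gamma-1 stays between 22.5 and 29.6 FPKM.

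Among the enzymes that modify tubulin, TTLL4 (MSTRG.3200), which attaches glutamate chains, went up with age in the ovary. Its values were 17.9 and 20.0 FPKM at day 1, 35.4 and 41.4 at day 5, 71.5 and 74.0 at day 9, and 93.1 and 89.6 at day 13. It rose by 0.98 ± 0.18 from day 1 to day 5 (limma adjusted p = 0.0035) and by 0.91 ± 0.18 from day 5 to day 9 (limma adjusted p = 0.00227), and the last step was not called. In the fat body the values ran from 0.888 to 4.24 FPKM, highest at day 9, and fell by 1.11 ± 0.18 from day 9 to day 13 (limma adjusted p = 0.00537), a call lost in the fit to the fat body alone. The tissue difference was 4.11 ± 0.09.

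TTLL5 (MSTRG.636), another polyglutamylase, had 13.2 to 17.9 FPKM in the ovary at days 1 and 5, 22.04 and 23.6 at day 9, and 34.5 and 41.1 at day 13. It was called higher in the last 2 steps, by 0.60 ± 0.16 and 0.70 ± 0.16. The first of these calls ended without ovary day 5 replicate 2 or ovary day 9 replicate 2 (0.46 to 0.75 over all single libraries left out) and the second in 8 of 16 such refits (0.58 to 0.82). TTLL7 (MSTRG.284) lay between 26.2 and 54.7 FPKM in the ovary and between 12.1 and 18.2 in the fat body and was called in no age step.

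Subunit 2 of the tubulin polyglutamylase complex (MSTRG.6899) showed a dip in the fat body. It had 2.83 and 3.61 FPKM at day 1, 0.0404 and 0.172 at day 5, 3.56 and 3.89 at day 9, and 2.84 and 1.78 at day 13. The rise from day 5 to day 9 was 2.10 ± 0.38 (limma adjusted p = 0.00542) and held in every alternative run. The fall of 1.93 ± 0.38 before it (limma adjusted p = 0.00869) was not called without fat body day 5 replicate 1, with changes from -2.06 to -1.80 over all single libraries left out. The 8 ovary libraries ranged from 4.42 to 19.5 FPKM with no called step.

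Tubulin-specific chaperones C (MSTRG.2231), D (MSTRG.7919) and E (MSTRG.4780) and folding cofactor B (MSTRG.6460) had mean ovary levels of 46.6 ± 4.69, 14.0 ± 2.05, 26.3 ± 6.93 and 27.4 ± 4.86 FPKM (SD, n = 8). Their fat body means were 39.0 ± 4.32, 5.49 ± 0.912, 19.6 ± 3.27 and 14.3 ± 3.22 FPKM. The loci of D and E also carry another product. All 4 were called higher in the ovary as deposited, but after median-of-ratios scaling chaperones C and E were called lower, at -0.58 and -0.42, cofactor B was not called, at 0.09, and D stood at 0.45. The locus of alpha-tubulin N-acetyltransferase (MSTRG.5478) was 1.25 ± 0.06 higher in the ovary, at 74.2 to 109.7 against 33.3 to 45.6 FPKM, and its description also holds a translation initiation factor and a bromodomain protein.

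KRP-130 and KIF23 had the largest tissue differences of the members. The bipolar kinesin KRP-130 (MSTRG.3921), which slides spindle microtubules apart, had 40.2 and 31.7 FPKM at day 1, 40.4 and 50.8 at day 5, 64.4 and 65.1 at day 9, and 78.0 and 83.4 at day 13 in the ovary. The fat body libraries held 0.386 to 2.09 FPKM. The difference was 4.90 ± 0.08 (limma adjusted p = 3.43e-11). KIF23 (MSTRG.10112), a kinesin of the spindle midzone and cytokinesis, was next at 4.47 ± 0.09, with 36.0 to 60.9 FPKM in the ovary and 0.584 to 1.91 in the fat body. KIF14 (MSTRG.4292), Klp10A (MSTRG.10535), which takes microtubule ends apart, and Nod (MSTRG.7592), a chromosome-bound kinesin of Drosophila oocytes, were higher by 2.91 ± 0.11, 3.05 ± 0.18 and 1.85 ± 0.07.

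Subito (MSTRG.8126) is a kinesin that Drosophila oocytes need to organise the meiotic spindle. It had 10.8 and 8.93 FPKM at day 1, 10.1 and 10.1 at day 5, 29.4 and 37.2 at day 9, and 68.3 and 57.1 at day 13 in the ovary, against 0.197 to 1.22 in the fat body. It rose by 1.62 ± 0.20 from day 5 to day 9 (limma adjusted p = 0.000124), a call that held in every alternative. It was also called in the next step at 0.90 ± 0.20 (limma adjusted p = 0.0365), a call lost in 8 of the 16 refits without 1 library, with changes from 0.73 to 1.06.

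Among transport kinesins, the heavy chain and unc-104 rose in the same step. Kinesin heavy chain (MSTRG.2701), the motor subunit of conventional kinesin, went from 61.1, 51.1, 50.7 and 61.1 FPKM at days 1 and 5 to 124 and 127 at day 9 and 169 and 167 at day 13. The fat body libraries held 16.9 to 28.3 FPKM. It rose by 1.16 ± 0.15 from day 5 to day 9 (limma adjusted p = 0.00014) and over the ages was 1.86 ± 0.07 higher in the ovary. Kinesin light chain (MSTRG.1429), which links that motor to cargo, had 76.4 and 68.9, 59.4 and 58.9, 45.1 and 48.1, and 58.6 and 54.9 FPKM in order of age. Its tissue difference of 0.78 ± 0.06 turned to -0.052 after median-of-ratios scaling.

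The kinesin unc-104 (MSTRG.6349), a carrier of synaptic vesicle precursors in neurons of other animals, had 5.39 and 6.43, 2.76 and 3.50, 8.31 and 8.55, and 10.9 and 13.6 FPKM in the ovary in order of age. Its first step, at -0.74 ± 0.19, was not called without ovary day 1 replicate 2 or ovary day 5 replicate 1. The rise from day 5 to day 9 was 1.20 ± 0.19 (limma adjusted p = 0.000625). Summed neuron markers in the ovary stood at 132 to 138 FPKM at day 5 and at 87.4 to 88.2 at day 9. Of the 6 tested genes of that list, 0 were higher and 2 lower in that step, against 13.9% and 24.1% of all genes. The part of neurons in the values of unc-104 was not tested. Milt (MSTRG.4008), the adaptor that ties kinesin to mitochondria in Drosophila, was 2.23 ± 0.11 higher in the ovary, with 18.4 and 23.0 FPKM at day 1 and 42.6 and 51.5 at day 13, but no single step was called. The 2 loci named tau-tubulin kinase 2 (MSTRG.830 and MSTRG.490) did not pass the tissue test as deposited, at -0.11 ± 0.09 and 0.09 ± 0.13. After median-of-ratios scaling both were called lower in the ovary, at -0.92 and -0.44, and after quantile normalization MSTRG.830 was, at -0.75.

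Of the 18 tested kinesins, 6 fell and 4 rose in the ovary between days 5 and 9, against 24.1% and 13.9% of all genes. The falls of KIF23 and kinesin light chain, by 0.62 and 0.34, did not hold in every alternative. The locus of KIF3A (MSTRG.6589), a motor subunit of the kinesin that builds cilia, went from 14.99 and 16.2 FPKM at day 1 and 13.9 and 14.6 at day 5 to 1.63 and 1.36 at day 9 and 0.987 and 0.940 at day 13. The fall of 2.61 ± 0.30 (limma adjusted p = 7.5e-05) held in every alternative. The description of this locus also names the muscle M-line protein unc-89, so its level cannot be given to the kinesin. In the fat body it lay between 3.40 and 9.31 FPKM, and the tissue difference of -0.42 ± 0.15 was not called without fat body day 9 replicate 1 or fat body day 13 replicate 1, with a range of -0.54 to -0.29.

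CG14535 (MSTRG.7952), a kinesin-like protein named after a Drosophila gene, had 3.24, 5.74, 4.59 and 4.76 FPKM in the ovary at days 1 and 5 and 0.348, 0.221, 0.163 and 0.102 at days 9 and 13. It fell by 2.14 ± 0.22 (limma adjusted p = 3.39e-05), again in every alternative. Kinesin-associated protein 3 (227341), the non-motor partner of KIF3A in the cilia-building kinesin, went from 1.42 and 1.501 to 0.194 and 0.210 FPKM, and kinesin-related protein 6 (MSTRG.9377) from 3.83 and 3.56 to 0.962 and 0.865 FPKM. Over the ages both were called lower in the ovary, by 0.33 and 0.88, and the first call did not hold in every alternative. Their falls of 1.03 ± 0.26 and 1.296 ± 0.27 were not called after quantile normalization, where they were -0.56 and -0.57. Beside these falls, summed muscle markers went from 6218 and 6372 FPKM at ovary day 5 to 655 and 1207 at day 9, and summed cilium and axoneme genes from 88.8 and 97.4 to 46.0 and 50.6. The part of muscle, nerve or ciliated cells in the falls was not tested.

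The other tested kinesins were called higher in the ovary with no age step called in it. They include KIF18A (MSTRG.5153), whose locus also carries a ribosomal protein, at 1.58 ± 0.09, Klp98A (MSTRG.7053), a kinesin of endosomes, at 1.71 ± 0.18, and costa (MSTRG.4670), a scaffold of Hedgehog signalling in Drosophila, at 1.81 ± 0.26. Costa had 0.706 FPKM in ovary day 1 replicate 1 and 3.33 to 7.48 in the other ovary libraries, against 0.232 to 0.819 in the fat body. Klp68D (MSTRG.8349), a Drosophila partner of the cilia-building kinesin, had 11.2 to 26.8 FPKM in the ovary, but was listed at 0 in 2 fat body libraries and at 5.46 to 10.8 in the other 6. Its difference of 1.76 ± 0.46 (limma adjusted p = 0.00454) was not called under either scaling. The 5 untested kinesins were the loci named KIF12 and KIF19, 2 loci each, and GA13060 (MSTRG.7953).

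Across all members in the ovary, 12 rose and 12 fell of 62 tested from day 5 to day 9, against 38.0% of all genes called in that step, 13.9% higher and 24.1% lower. Of the 12 that fell, 1, the roadblock locus MSTRG.7719, had passed the filter through ovary day 5 alone. After median-of-ratios scaling the split was 15 higher and 6 lower. That of all genes was 2069 higher and 1757 lower, so both moved towards higher calls. Of the 24 calls, 12 held in every alternative. These were the rises of gamma-tubulin complex components 2 and 3, gamma-1-like, alpha-4, TTLL4, subito, kinesin heavy chain, unc-104 and dynein light chain 4, and the falls of tubulin beta chain, CG14535 and the KIF3A locus. By day 13 little more was called in the ovary: 2 members rose and 0 fell, against 4.22% of all genes, 1.63% higher and 2.59% lower.

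**Figure D4:**
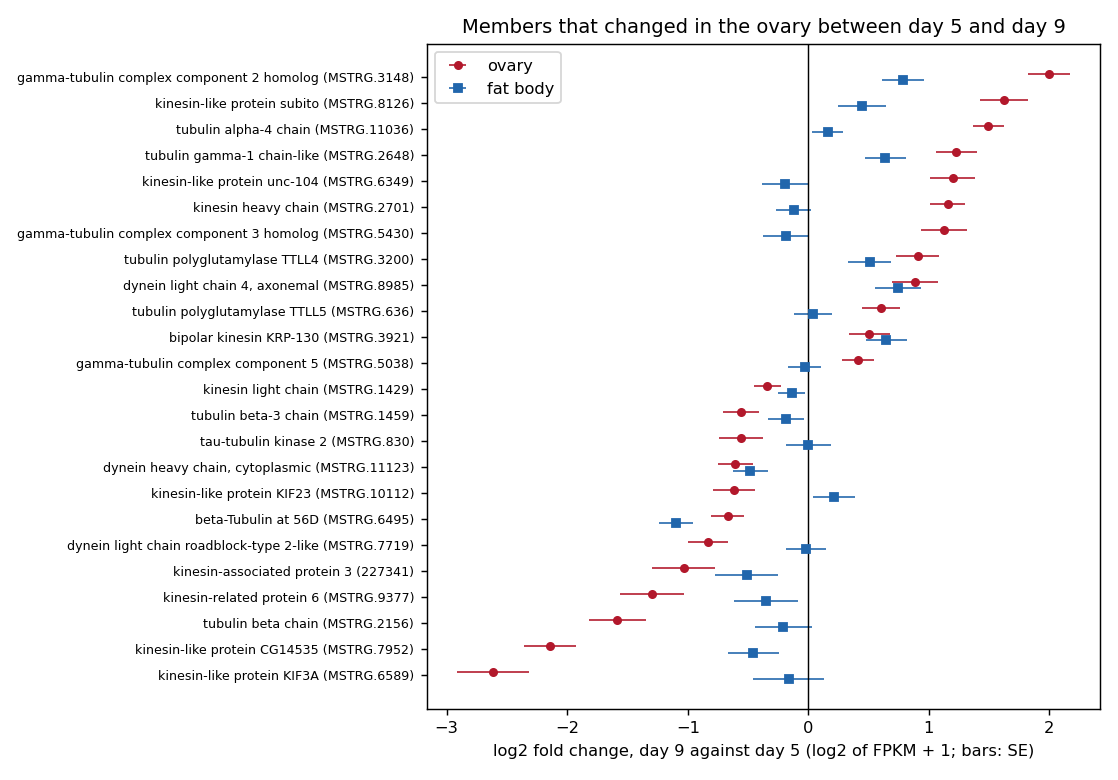
Log2 fold change from day 5 to day 9 in the ovary (circles) and the fat body (squares) for the 24 members called in the ovary, with bars for SE. Ovary values run from -2.61 for the KIF3A locus to 2.0 for gamma-tubulin complex component 2, and the fat body value of beta-Tubulin at 56D is -1.10.

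All 8 tested cytoplasmic dynein genes were higher in the ovary as deposited, but 35495 and MSTRG.7719 had passed the filter through 1 ovary group alone. Neither was tested after median-of-ratios scaling, where 4 were higher. With no filter, 8 of 11 were higher and 0 lower, against 46.9% and 20.0% of all genes. Dynein light chain 2 (MSTRG.10731), a small subunit shared with other complexes, was the most abundant dynein gene. It had 138 and 159 FPKM in the ovary at day 1, 215 and 228 at day 5, 187 and 186 at day 9, and 188 and 199 at day 13, and 45.4 to 85.2 in the fat body. It was 1.52 ± 0.07 higher in the ovary and fell by 0.78 ± 0.14 in the fat body from day 5 to day 9 (limma adjusted p = 0.0055), a call lost in the fit to the fat body alone. In the ovary it was called higher at day 5 by 0.58 ± 0.14, but not without ovary day 1 replicate 1 or either ovary day 5 library (0.48 to 0.68).

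The heavy chain (MSTRG.11123), which holds the motor, had 34.8 and 39.4, 29.7 and 28.3, 19.4 and 18.005, and 21.6 and 23.0 FPKM in the ovary in order of age, and 9.40 to 18.1 in the fat body. It fell by 0.61 ± 0.14 from day 5 to day 9 (limma adjusted p = 0.00688), but not without ovary day 9 replicate 2, with a range of -0.66 to -0.55. The intermediate chain (MSTRG.663), which binds dynactin, lay between 49.8 and 73.5 FPKM in the ovary and 26.9 and 35.6 in the fat body. The heavy and intermediate chains were each 0.94 higher in the ovary (SE 0.07 and 0.06), and neither difference was called after median-of-ratios scaling, where that of the intermediate chain was 0.10.

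Of 3 loci named roadblock, a light chain of the cargo-binding tail, one was abundant and the others were close to 0 in the fat body. MSTRG.7721 had 37.8 to 51.4 FPKM in the ovary and 5.39 to 21.6 in the fat body, a difference of 1.81 ± 0.12. MSTRG.7720 had 5.54 and 2.62 FPKM in the ovary at day 1 and 0.00679 and 0.0122 at day 5, came to 0.483 and 1.91 at day 13, and was listed at 0 in all 8 fat body libraries. Its fall of 2.27 ± 0.32 from day 1 to day 5 (limma adjusted p = 0.000987) held in every alternative, although reads could have been divided between the 3 loci. MSTRG.7719 stayed at or below 1.31 FPKM. Its called fall of 0.83 from day 5 to day 9 in the ovary did not hold in every alternative, and it had passed the filter through ovary day 5 alone.

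Genes that act with dynein, chosen by product name, were not members. Of 15 dynein partners, 14 were higher in the ovary and 1 was lower, against 57.4% and 24.9% of all genes, with a median of 1.09 against 0.58. After median-of-ratios scaling 9 were higher and 4 lower, with a median of 0.39 against -0.03 for all genes. Under that scaling all genes had 3957 higher and 4053 lower calls. Spindly (MSTRG.5246) and zw10 (MSTRG.4401), which bring dynein to kinetochores, were higher by 3.997 ± 0.11 and 1.87 ± 0.06. No partner passed the test from day 1 to day 5 in the ovary, where 7.42% of all genes were higher and 16.3% lower. From day 5 to day 9, 0 rose and 2 fell, against 13.9% and 24.1% of all genes. Of 19 tested microtubule-associated and severing proteins, 15 were higher in the ovary and 3 lower, with a median of 1.55, and after median-of-ratios scaling 11 were higher and 4 lower of 18. Those with the smallest p were spastin (MSTRG.7060) at 2.35 ± 0.07 and cytoskeleton-associated protein 5 (MSTRG.9195) at 2.85 ± 0.10. From day 5 to day 9 in the ovary, 3 of these 19 were higher and 9 lower, against 13.9% and 24.1% of all genes. Their median in that step was -0.02, against -0.15 for all genes. Of 24 tested spindle and centrosome genes, 21 were higher and 1 lower, against the same shares of all genes, with a median of 2.01. After median-of-ratios scaling 20 were higher and 2 lower, with a median of 1.28. Abnormal spindle (MSTRG.11000) and centrosomal protein of 135 kDa (MSTRG.6864) were at 4.41 ± 0.09 and 3.62 ± 0.07. The list of spindle and centrosome genes summed to 535 to 603 FPKM in the ovary at day 5 and to 1206 to 1360 at day 9, with 5 of 24 called higher and 3 lower, against 13.9% and 24.1% of all genes.

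Axonemal dyneins formed the largest class and the faintest. Their median level over all libraries was 0.0882 FPKM, and 9 of 38 reached the test. The ovary at day 1 had the highest group mean in 24 of the 38, but 29 of the 38 averaged less than 1 FPKM in every group. The matching share of all genes was not counted, so nothing is read from this number. Dynein heavy chain 2 (123983) had 4.19 and 2.76 FPKM in the ovary at day 1, 0.305 and 0.395 at day 5, and at most 0.0623 at days 9 and 13. No fat body library exceeded 0.137 FPKM. The change from day 1 to day 5 was -1.71. A locus of ciliary dynein intermediate chain 3 (MSTRG.4850) went from 1.47 and 0.970 to 0.118 and 0.0995 FPKM, a change of -0.99.

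A fit with no filter on low values covered all 38. In it, 14 axonemal dyneins were lower at day 5 than at day 1 in the ovary and 0 were higher, which is 36.8% lower against 14.4% of all 13759 genes. In the same fit 5.52% of all genes were higher in that step. Between the tissues it called 18 axonemal dyneins higher in the ovary and 2 lower, a share near that of all genes for higher calls, which was 46.9%. Among those added by that fit were dynein heavy chain 12 (MSTRG.4882), at 0.734 and 0.838 FPKM at day 1 and 0.250 and 0.148 at day 5, and dynein heavy chain 3 (180585), at 0.805 and 0.546 and then 0.204 and 0.121. The glycylase 3B (183197), whose relatives modify the tubulin of axonemes in Drosophila, had 1.75 and 0.922 FPKM at day 1 and 0.348 and 0.237 at day 5, a change of -0.83. Dynein heavy chain 2 (123983), the ciliary chain MSTRG.4850 and the glycylase reached a mean of 1 FPKM in the ovary at day 1 only. The filter thus admitted these genes through the group where they are high. The fit with no filter, which tests every gene, also called all 3 lower at day 5, with SE of 0.12, 0.11 and 0.13. At such levels differences between libraries rest on few reads, whose number is not known.

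Other genes of cilia and axonemes, chosen by product name, were examined beside them. In the fit with no filter, 20 of the 36 genes of that list were lower and 1 higher in the ovary at day 5 than at day 1, where 14.4% of all genes were lower and 5.52% higher. The whole list of 36 genes summed to 112 and 124 FPKM at day 1, 88.8 and 97.4 at day 5, and 46.0 to 59.8 at days 9 and 13 in the ovary, and to 32.7 to 48.3 in the fat body, and none was at 0 in all 16 libraries. In the tissue comparison 15 of the 17 tested were higher in the ovary and 0 lower, against 57.4% and 24.9% of all genes, and their median of 0.55 lay just below the 0.58 of all genes. With no filter, 24 of the 36 were higher and 4 lower, against 46.9% and 20.0% of all genes. The median was then 0.20, against 0.16 for all genes. After median-of-ratios scaling 6 were higher and 3 lower of 11 tested, beside 3957 higher and 4053 lower of all genes. The 2 with the smallest p were intraflagellar transport proteins 122 (MSTRG.1759) and 140 (MSTRG.2259) at 1.58 ± 0.10 and 1.62 ± 0.12. Neuron markers summed to 128 to 143 FPKM at day 1 and 132 to 138 at day 5, and testis products to 30.8 to 40.0 and 29.4 to 32.9. The part of ciliated neurons or sperm in the axonemal values was not tested.

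Not all axonemal names followed this course. The locus of axonemal dynein light chain 4 (MSTRG.8985), whose description also holds a small RNA methyltransferase, rose from 9.70 and 8.54 FPKM at day 1 and 11.1 and 10.4 at day 5 to 21.6 and 19.7 at day 9 and 27.6 and 26.5 at day 13 in the ovary. The rise from day 5 to day 9 was 0.88 ± 0.19 (limma adjusted p = 0.00439) and held in every alternative, and the locus was 2.59 ± 0.10 above the fat body. In the fat body it was also called higher in that step, by 0.745, a call that did not hold in every alternative. The difference between the tissues in that step was called for 0 of the 9 tested axonemal dyneins. The putative inner arm light chain (MSTRG.1264) had 3.32 to 5.37 FPKM in the ovary and 0.330 to 0.896 in the fat body, with no called step. Dynein assembly factor 5 (MSTRG.8009) differed by more than its partner in the ovary at day 1, with 7.14 and 0.418 FPKM, and its tissue difference of 0.39 ± 0.35 turned to -0.23 after median-of-ratios scaling. Dynein heavy chain 8 (MSTRG.4579) was lower in the ovary by 0.39 ± 0.14, but not without ovary day 5 replicate 1, fat body day 5 replicate 2 or ovary day 13 replicate 2 (-0.47 to -0.31).

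**Figure D5:**
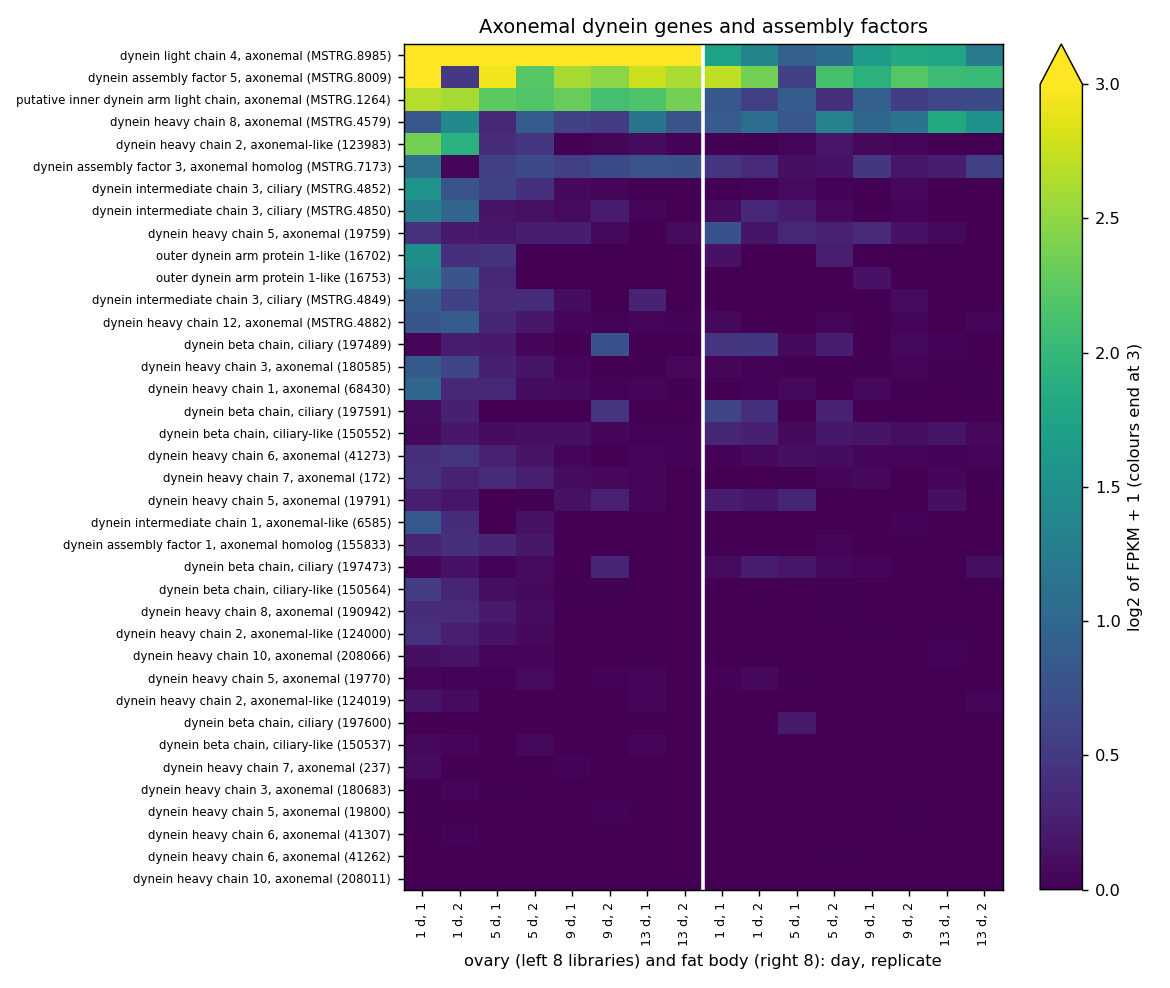
Level of all 38 axonemal dynein genes and assembly factors in each of the 16 libraries, as log2(FPKM + 1) from 0 to 3, with ovary libraries left of the white line and fat body libraries right of it. The ovary columns of day 1 hold values such as 4.19 and 2.76 FPKM for dynein heavy chain 2 (123983).

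In the ovary from day 1 to day 5 as a whole, 2 of the 62 tested members rose and 13 fell, against 23.8% of all genes called, 7.42% higher and 16.3% lower. Of the 13 that fell, 8 had passed the filter through ovary day 1 alone, so the count is no support for a fall. The fit with no filter called 2 higher and 25 lower of all 100 members, against 5.52% and 14.4% of all genes. The split was 2 higher and 4 lower after median-of-ratios scaling and 4 higher and 7 lower after quantile normalization. All genes stood at 798 higher and 1034 lower after that scaling, and at 1159 and 1160 after that normalization. Of the 15 calls, 5 held in every alternative in which they were tested. These were the rise of TTLL4 and the falls of dynein heavy chain 2, the ciliary intermediate chain, glycylase 3B and the roadblock locus MSTRG.7720. Dynein heavy chain 2, the ciliary chain and glycylase 3B had passed the filter through ovary day 1 alone. The ciliary chain and glycylase 3B were tested under neither scaling.

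In the fat body the calls were few. From day 1 to day 5, 2 members were called higher and 2 lower, against 14.5% of all genes, 3.80% higher and 10.7% lower, and from day 5 to day 9, 5 were higher and 3 lower, against 11.1%, 5.53% higher and 5.60% lower. From day 9 to day 13, 0 were higher and 5 lower, against 7.16%, 1.73% higher and 5.42% lower. After median-of-ratios scaling the splits were 3 and 1, 6 and 2, and 2 and 4. Those of all genes were 654 and 649, 770 and 569, and 392 and 572. None of the 5 calls of the last step held in the fit to the fat body alone. The calls that held in every alternative were the fall of beta-Tubulin at 56D and the rise of polyglutamylase subunit 2, both from day 5 to day 9. From day 1 to day 5, TTLL4 and dynein light chain 2 were called higher, by 0.64 and 0.49, and chaperone D lower, by 0.50. KRP-130 was called higher from day 5 to day 9, by 0.65, and beta-Tubulin at 56D lower from day 9 to day 13, by 0.64. From day 9 to day 13, KRP-130 was called lower by 0.96 ± 0.17, a call lost without fat body day 9 replicate 1 (-1.09 to -0.82), and gamma-1-like by 0.76 ± 0.17, a call lost in 3 of 16 such refits (-0.95 to -0.57).

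The difference between the tissues in each step was tested as an interaction, taken as the ovary change minus the fat body change. From day 1 to day 5, 0 members had a higher and 5 a lower ovary change, against 7.96% of all genes called, 4.11% higher and 3.85% lower, and 3 of the 5 had passed the filter through ovary day 1 alone. From day 5 to day 9 the numbers were 6 and 5, against 26.3%, 10.0% higher and 16.3% lower. After median-of-ratios scaling the numbers were 13 and 3, beside 1375 and 1380 of all genes, and after quantile normalization 6 and 4, beside 1206 and 1149. From day 9 to day 13 they were 7 and 0, against 5.50%, 3.76% higher and 1.74% lower. After median-of-ratios scaling they were 6 and 1, beside 337 and 291 of all genes. After quantile normalization they were 3 and 1, beside 237 and 235 of all genes. In the middle step the rises of alpha-4, kinesin heavy chain, unc-104 and gamma-tubulin complex components 2 and 3 exceeded the fat body change by 1.33 ± 0.18, 1.28 ± 0.21, 1.39 ± 0.27, 1.21 ± 0.25 and 1.31 ± 0.27. All 5 of these held in every alternative.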

How the data were processed

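Ovary and fat body of adult female Bactrocera dorsalis were sequenced in 16 libraries, 2 for each tissue and age. The authors deposited 1 table of FPKM, per the file headers. Bowtie 0.12.2, HISAT2 2.0 and StringTie 1.3.0 stand in the submitters' processing notes with no role stated, beside a mouse genome build, so no coordinates or sequences are given. Read totals are unknown, and no counting interval can be given. The table's symbol column was not used.

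Values were taken as deposited, as log2(FPKM + 1). The 10213 genes whose mean reached 1 FPKM in some group entered limma 3.58.1 (R 4.3.3), with trend and robust moderation, 1 coefficient per group, all 16 libraries, and Benjamini-Hochberg adjustment over all tested genes at 0.05. The steps were tested on simulated data. Python 3.11.15, pandas 2.3.3, numpy 2.4.6 and matplotlib 3.10.9 served for tables and plots. The labels call the 2 libraries of a group biological replicates but do not say how many animals each holds, so p-values measure the spread between these samples.

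The members and gene lists were chosen with earlier results of these data known, and some product names were taken out of the lists after the names were seen. Named were, per class, the 3 members with the highest mean level, and the called members with the largest fold change between tissues (5 per direction), the smallest p per age step (4 per direction) and per interaction (3 per direction). Of each pathway list the 2 genes with the smallest p in the tissue comparison were named. Other members in the text were chosen after their values were seen.

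Other settings were no filter, a 5 FPKM filter, a 0.1 pseudocount, median-of-ratios scaling, quantile normalization, limma without trend and robust moderation, a replicate block, fits to 1 tissue only, and each library left out in turn.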

Additional observations from a re-analysis of the deposited data

Results flagged for a closer look

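Of the called differences between tissues in an age step, the 12 with the smallest p, up to 3 per step and direction, are described. In each, the change in the ovary differed from the change in the fat body by the test of the difference itself (limma, adjusted over all genes). Values are the ovary change minus the fat body change, ± SE, on the log2 scale. No explanation was tested.

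From day 1 to day 5 the ovary change was lower for dynein heavy chain 2, axonemal-like (123983), at -1.81 ± 0.21 (limma adjusted p = 0.00163). This gene and the ciliary chain MSTRG.4850 had passed the filter on low values through ovary day 1 alone, and both were also called in the fit with no filter. It was lower for the roadblock locus MSTRG.7720, at -2.27 ± 0.45 (limma adjusted p = 0.016), with the fat body at 0 throughout, and not without ovary day 5 replicate 2 or either fat body day 5 library (-2.70 to -1.84). For the ciliary dynein intermediate chain 3 (MSTRG.4850) the difference was -0.93 ± 0.20 (limma adjusted p = 0.0215), lost in 4 of 15 refits without 1 library (-1.09 to -0.81), with a pseudocount of 0.1 and with the replicate block.

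From day 5 to day 9 the ovary change was higher for tubulin alpha-4 chain (MSTRG.11036), at 1.33 ± 0.18 (limma adjusted p = 0.000571), for kinesin heavy chain (MSTRG.2701), at 1.28 ± 0.21 (limma adjusted p = 0.00145), and for unc-104 (MSTRG.6349), at 1.39 ± 0.27 (limma adjusted p = 0.00378). It was lower for the KIF3A and unc-89 locus (MSTRG.6589), at -2.45 ± 0.42 (limma adjusted p = 0.00209), for CG14535 (MSTRG.7952), at -1.69 ± 0.30 (limma adjusted p = 0.0027, a call lost with a pseudocount of 0.1), and for tubulin beta chain (MSTRG.2156), at -1.38 ± 0.34 (limma adjusted p = 0.0135).

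From day 9 to day 13 it was higher for TTLL4 (MSTRG.3200), at 1.44 ± 0.25 (limma adjusted p = 0.013). The same held for KRP-130 (MSTRG.3921), at 1.27 ± 0.24 (limma adjusted p = 0.0171), and subito (MSTRG.8126), at 1.47 ± 0.28 (limma adjusted p = 0.0183). These last calls were lost in 4 of 16 (1.14 to 1.41) and 3 of 16 (1.27 to 1.67) refits without 1 library.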

How the results depend on the processing

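Counts of called members moved by more than 1.5 times as follows. From day 1 to day 5 in the ovary, 15 became 27 with no filter, 6 with the filter at 5 FPKM and 6 after median-of-ratios scaling. From day 9 to day 13 in the ovary, 2 became 1 with a pseudocount of 0.1 and after median-of-ratios scaling, and 0 in the fit to 1 tissue. In the fat body the fit to 1 tissue gave 1, 3 and 0 in place of 4, 8 and 5, and quantile normalization gave 2 in the last step. For the tissue difference from day 1 to day 5, 5 became 3 with a pseudocount of 0.1 and after median-of-ratios scaling, 10 with no filter and 0 with the filter at 5 FPKM, and from day 9 to day 13, 7 became 4 after quantile normalization. The fits to 1 tissue hold fewer samples and the filters change the genes tested; otherwise the cause was not tested. Without 1 library, counts ran from 49 to 59 for the tissues, 6 to 15, 16 to 29 and 0 to 3 for the ovary steps, 1 to 8, 3 to 9 and 2 to 6 for the fat body steps, and 1 to 12, 9 to 13 and 1 to 7 for the tissue differences. Direction turned in the tissue comparison for chaperones C (-0.58) and E (-0.42, and -0.16 after quantile normalization), tubulin beta-3 (-0.26) and kinesin light chain (-0.052) after median-of-ratios scaling, assembly factor 5 (-0.23, and -0.19 after quantile normalization), tau-tubulin kinase 2 MSTRG.490 (-0.44 and -0.20), and alpha-Tubulin at 84B (0.33 after quantile normalization, 0.13 without ovary day 1 replicate 1, 0.30 without ovary day 9 replicate 2, and -1.37 to 0.30 over all libraries left out). For the named members, 1440 values under an alternative kept direction and side of the threshold, 143 lost the call, 3 gained one and 9 turned.

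The correlation of deviations by replicate number ran from -0.15 to 0.15 over 28 pairs of groups, and 1 was over 0.1. No pairing was seen in these values, which cannot tell whether libraries of the same number came from the same flies. With the replicate block the counts were 0 in the last ovary step, 2 and 4 in the first and second fat body steps, and 2 and 3 for the tissue differences from day 1 to day 5 and from day 9 to day 13. Depth is unknown, so the precision of low values cannot be stated.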
